A study of Saccharomyces cerevisiae with 27 samples.

Results

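The genes described here encode the 9 listed components of peroxisomal fatty acid beta-oxidation in Saccharomyces cerevisiae: the transporter subunits PXA1 and PXA2, the acyl-CoA synthetase FAA2, the core enzymes POX1, FOX2, and POT1, and the auxiliary enzymes ECI1, DCI1, and SPS19. They were chosen by systematic gene name for their place in the pathway, not by their values, and make up 9 of the 6692 genes measured. RNA was sequenced from BY4741, a haploid MATa laboratory strain that lacks LEU2, URA3, and MET15 and carries a partial deletion of HIS3. All cultures had Synthetic Complete (SC) medium as their base, with glucose at 2%, the nonrestricted (NR) condition, and received a supplement at inoculation. The supplement was water, medium conditioned by NR cultures (NRCM), or medium conditioned by calorie-restricted low-glucose cultures (CRCM), with both conditioned media filtered and concentrated 10-fold. Each concentrate was added at 2% of the medium volume. Cells were collected in log phase, at 24 h, and at 96 h, which gives 9 groups of 3 libraries.

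In budding yeast the peroxisome is the only site of fatty acid beta-oxidation. Long-chain acyl-CoA enters through the Pxa1-Pxa2 ATP-binding cassette transporter, whereas medium-chain fatty acids are activated inside by Faa2. Pox1 introduces the first double bond, the multifunctional enzyme Fox2 hydrates and oxidizes the product, and the thiolase Pot1 releases acetyl-CoA. Eci1 and Sps19 are an isomerase and a reductase needed for unsaturated fatty acids, and Dci1 is a relative of Eci1. These genes are classically repressed by glucose and induced by oleate, through the Oaf1-Pip2 heterodimer bound to oleate response elements and through Adr1, which depends on the kinase Snf1.

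The upstream elements are shown first because they are the shared sequence feature through which these genes are known to be controlled. The 500 bases before each coding start (R64 genome, equal to sacCer3) were searched on both strands for CGGNNNTNA followed by 9 to 12 bases and CCG. A match was found for 8 of the 9 genes, in 2 copies each for POX1 and FOX2, and none was found in this window for PXA1. The same search matched 113 of 6003 promoters of this length (1.88%). The element was first defined from promoters of such genes, so that the 8 matches are a description and not independent evidence. Each stretch reads 5′ to 3′ toward the gene, with the element in capitals and 12 flanking bases on each side:
POX1 (chrVII:107834-107917): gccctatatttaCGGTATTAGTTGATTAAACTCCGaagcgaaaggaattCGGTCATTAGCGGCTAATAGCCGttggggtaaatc
FOX2 (chrXI:457293-457370, minus strand): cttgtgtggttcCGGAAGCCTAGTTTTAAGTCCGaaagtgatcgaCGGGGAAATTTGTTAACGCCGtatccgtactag
POT1 (chrIX:41598-41644, minus strand): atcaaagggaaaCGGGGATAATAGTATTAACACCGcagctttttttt
FAA2 (chrV:184343-184389): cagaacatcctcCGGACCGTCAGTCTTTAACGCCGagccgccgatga
PXA2 (chrXI:89023-89070, minus strand): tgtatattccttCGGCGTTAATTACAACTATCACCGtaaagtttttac
ECI1 (chrXII:707179-707225, minus strand): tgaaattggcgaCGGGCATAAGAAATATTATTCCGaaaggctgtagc
SPS19 (chrXIV:259400-259447): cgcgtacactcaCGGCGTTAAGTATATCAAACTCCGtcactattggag
DCI1 (chrXV:675274-675321, minus strand): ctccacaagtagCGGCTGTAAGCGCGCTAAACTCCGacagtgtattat

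With any CGG and CCG separated by 15 to 18 bases the same 8 genes matched, against 8.8% of promoters. This pattern contains the stricter one, so those 8 were bound to match and only PXA1 could have been added. The Adr1 core (TTGGAG or TTGGGG, either strand) was present upstream of 8 of the 9 genes, all but PXA2, against 26.12% of promoters. The 2 genes encoding transporter subunits were thus each missing a different element in this window. All 9 coding regions are single exons. PXA1 (YPL147W) lies at chrXVI:273255-275867 on the plus strand, PXA2 (YKL188C) at chrXI:86225-88786 on the minus strand, and FAA2 (YER015W) at chrV:184541-186775 on the plus strand. POX1 (YGL205W) lies at chrVII:108158-110404 (plus), FOX2 (YKR009C) at chrXI:454352-457054 (minus), and POT1 (YIL160C) at chrIX:40191-41444 (minus). ECI1 (YLR284C) lies at chrXII:706198-707040 (minus), DCI1 (YOR180C) at chrXV:674352-675167 (minus), and SPS19 (YNL202W) at chrXIV:259578-260456 (plus).

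The 27 libraries held 7396427 to 114316138 reads (median 12375094), and the 9 genes were covered by 46 to 23847 reads per library. Levels below are CPM, reads scaled to library size and to a common composition over all libraries, as mean ± SD with n = 3, and fold changes are on the log2(CPM + 1) scale with adjusted p values from limma. Marker values here are scaled to library size alone. The a-specific genes MFA1, MFA2, STE2, STE6, and BAR1 were at 43.6 CPM or higher in every library, and MET15 had no read in any. The alpha-specific genes, which should be low in MATa cells, had reads in every library. They reached 13.2 CPM for MF(ALPHA)1, 25.9 CPM for MF(ALPHA)2, and 60.4 CPM for STE3. The CRCM 96 h replicate 3 library stood apart from the strain's genotype, with 541 reads of LEU2 (68.1 CPM) and 93 of URA3 (11.7 CPM), against at most 3 and 2 reads in the other 26 libraries. Counts of the 9 genes called in tests that include this library are given with and without it. Some single tests, levels, and shares are as well. Where such a value is given once, it includes this library.

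**Figure D1:**
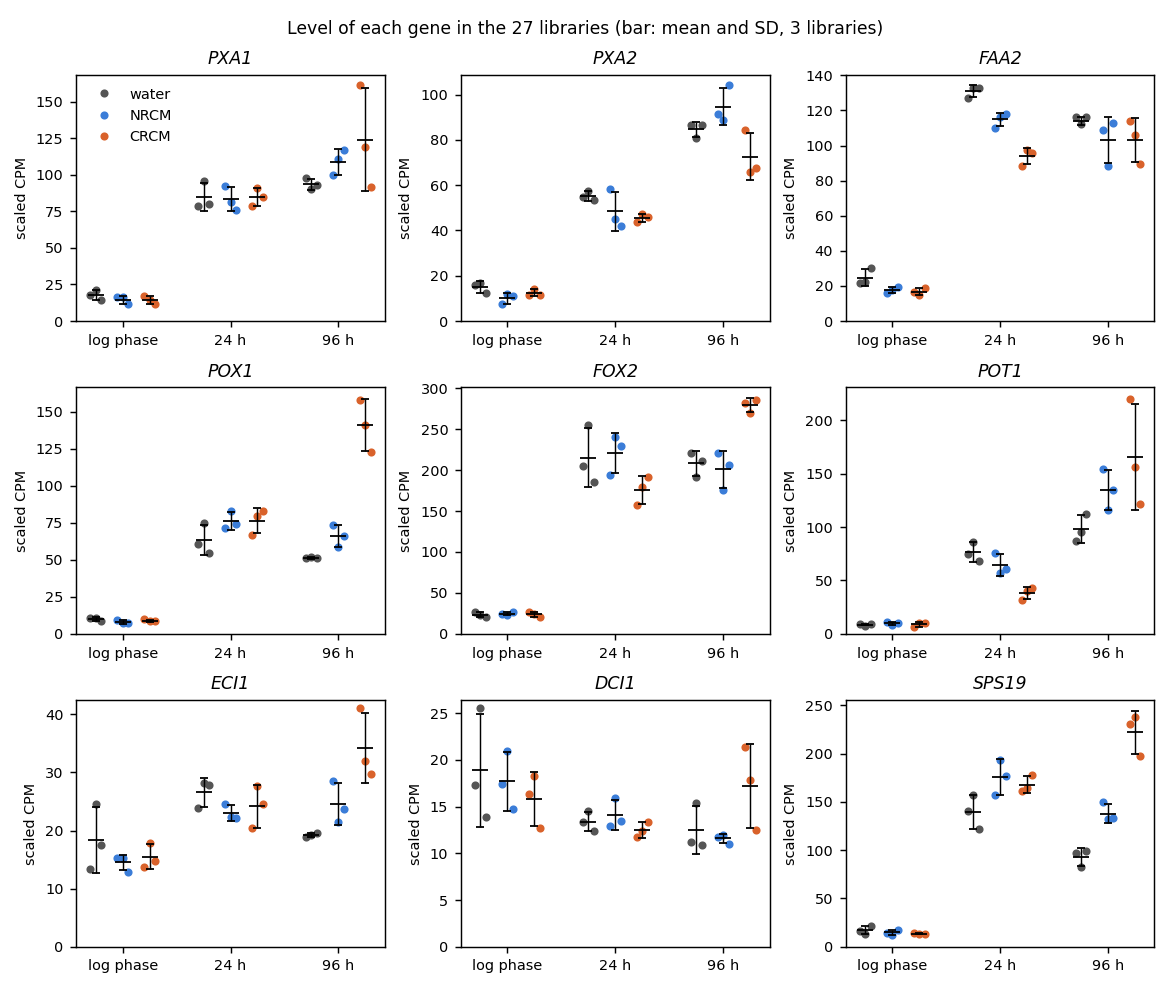
Scaled CPM of each gene (vertical axes, from 0) in the 27 libraries at log phase, 24 h, and 96 h, with dots for libraries and bars for the mean and SD of 3. Levels were low in log phase for 7 genes. At 96 h the 3 CRCM libraries of POX1, FOX2, ECI1, and SPS19 lay above every water and NRCM library. The share of all genes that separate in this way was not taken.

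Levels at 24 h were compared with those in log phase under each supplement. In water cultures FOX2 had 27.1, 23.1, and 20.3 CPM in log phase and 205, 255, and 185 CPM at 24 h. SPS19 had 16.7, 13.4, and 21.4 CPM in log phase and 141, 157, and 122 CPM at 24 h. The log-phase and 24 h libraries did not overlap for either gene. FOX2 rose by 3.14 ± 0.13 (SE, adjusted p = 2.55e-16), POT1 by 2.98 ± 0.19, SPS19 by 2.97 ± 0.14, and POX1 by 2.54 ± 0.13 on the log2 scale. FAA2 (2.37), PXA1 (2.20), and PXA2 (1.82) rose as well, and ECI1 rose least (0.55 ± 0.17, adjusted p = 0.00499). Without water log-phase replicate 1 the call of ECI1 was lost (0.34, adjusted p = 0.0625). DCI1 was called lower, with a level of 18.9 ± 6.03 CPM in log phase and 13.4 ± 1.04 CPM at 24 h, a change of -0.43 ± 0.19 (adjusted p = 0.0461). This call was lost when any library but log-phase replicate 3 was left out, most so without log-phase replicate 2 (-0.20, adjusted p = 0.344), and with only the 6 libraries compared (adjusted p = 0.0903). Thus 8 of 9 genes were called higher and 1 lower, where 37% and 39.3% of 6658 tested genes were (76.3% in either direction). With CRCM and NRCM the same 8 genes were called higher, against backgrounds of 39.6% and 38.8% (76.1% and 78.4% in either direction), and DCI1 was not called (-0.30 with either supplement).

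The regulators moved to different degrees over the same interval. ADR1 rose from 91.9 ± 27.8 to 1008 ± 73 CPM in water cultures (3.48 ± 0.18 on the log2 scale, adjusted p = 1.2e-14). OAF1 (0.56) and PIP2 (0.64), which encode the partners of the oleate-responsive heterodimer, rose by less. OAF3, which encodes a repressor of oleate-responsive genes, changed by -0.31 (adjusted p = 0.0197), and SNF1 by -0.41 (adjusted p = 0.00891). Among other peroxisomal enzymes and carriers 8 of 11 rose and 2 fell, and among peroxisome biogenesis genes 17 of 29 rose and 4 fell. Of the 10 fatty acid synthesis and elongation genes 7 fell and 2 rose. Without TMM factors, an alternative added for these lists after seeing the data, the counts were 8 and 2, 14 and 5, and 7 lower and 1 higher, and all 5 regulators kept their calls. Of the other lists, 3 of 6 neutral lipid lipases rose and 2 fell, and 4 of 5 neutral lipid storage genes rose and 1 fell. Among 3 other acyl-CoA synthetases 1 rose and 2 fell. All these counts stand beside 37% of all genes called higher and 39.3% lower. Without TMM factors 75.3% of all genes were called in either direction.

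**Figure D2:**
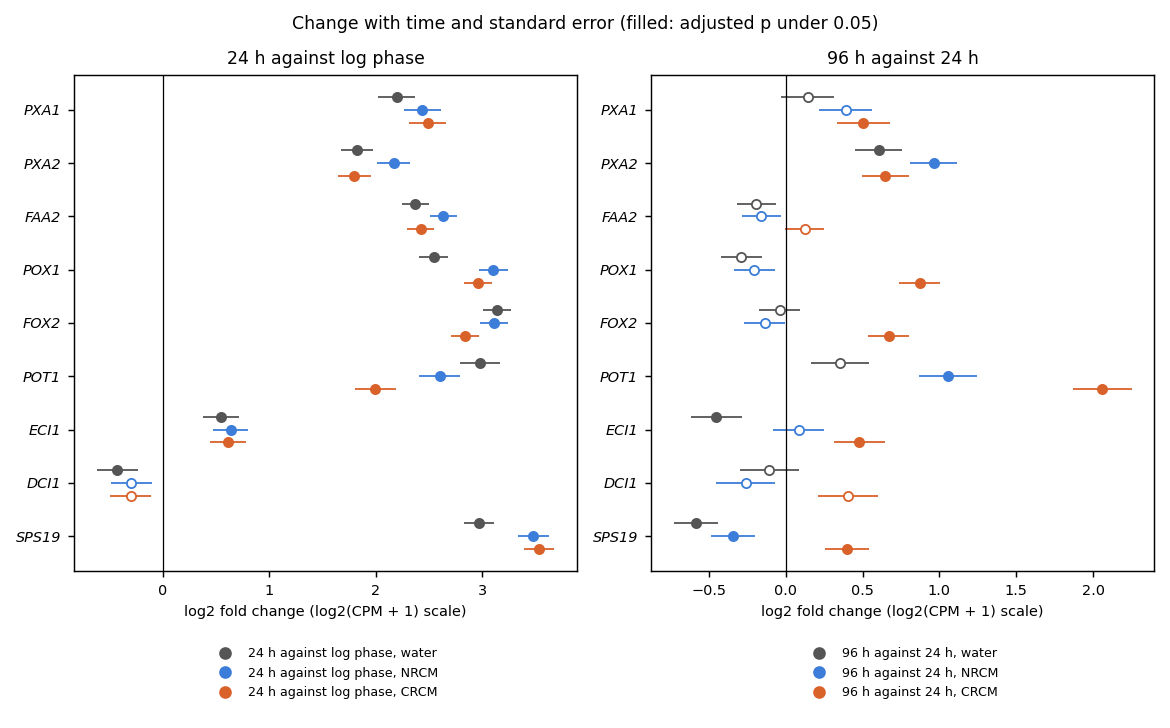
Log2 fold change with standard error (horizontal axes) for each gene at 24 h against log phase (left) and 96 h against 24 h (right) in water, NRCM, and CRCM cultures, with filled dots for adjusted p under 0.05. On the left 8 genes sit to the right of 0 with every supplement, and on the right POT1 in CRCM cultures is the farthest from 0, at 2.06.

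In log phase the supplements made no difference that passed the test. No beta-oxidation gene was called by limma in any of the 3 supplement comparisons, and edgeR and DESeq2 called 0 as well. At an unadjusted p under 0.05 there was 1 gene for CRCM against water, 2 for NRCM against water, and 0 for CRCM against NRCM. Over all 6483 genes tested the shares called at the adjusted threshold were 0%, 0.0154%, and 0%. No share of all genes was taken at the unadjusted threshold. FAA2 was at 16.5, 14.9, and 19.0 CPM with CRCM against 21.8, 22.0, and 30.4 CPM with water (-0.53, adjusted p = 0.998).

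At 24 h CRCM cultures had less POT1 and FAA2 RNA than water cultures. POT1 was at 31.7, 39.9, and 43.2 CPM with CRCM and at 75.1, 86.2, and 68.4 CPM with water. FAA2 was at 88.6, 97.7, and 95.7 CPM with CRCM and at 127, 133, and 133 CPM with water. In both cases every CRCM library was below every water library. The change of POT1 was -1.0 ± 0.15 (adjusted p = 0.000494) and that of FAA2 was -0.49 ± 0.08 (adjusted p = 0.000687). The other 7 genes lay between -0.31 (FOX2, adjusted p = 0.0882) and 0.25 (POX1, adjusted p = 0.135). With 2 of 9 called (22.2%) against 51.5% of 6577 genes in either direction, and 24.7% called lower, the share called was below that of all genes.

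Scaling mattered for this comparison. Without TMM factors the median of all genes shifted by 0.42 on the log2 scale. Of all genes 67.4% were then called, and 85.2% of all calls were higher rather than 52%. POT1 was still lower (-0.59, adjusted p = 0.00867), FAA2 lost its call (-0.07, adjusted p = 0.472), and POX1 (0.67), SPS19 (0.67), and PXA1 (0.40) were called higher. The ratio of one gene to another within a library does not depend on such scaling. POX1 over POT1 in CPM was 2.11, 1.98, and 1.92 in the CRCM libraries, 0.808, 0.867, and 0.801 in the water libraries, and 0.936, 1.45, and 1.22 in the NRCM libraries. The CRCM ratios were above all others at 24 h. This pair was not planned. With TMM factors POX1 (0.25) had the highest and POT1 (-1.0) the lowest change against water among these genes, so their ratio restates those values.

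NRCM at 24 h gave 0 of 9 calls with limma, edgeR, and DESeq2, against 13.1% of all genes called by limma. At an unadjusted p under 0.05 there were 2 genes, with no share of all genes taken at that threshold. SPS19 came nearest (0.33 ± 0.11, adjusted p = 0.0854). Between the conditioned media 2 of 9 genes were called. POT1 was lower with CRCM than with NRCM (-0.76 ± 0.15, adjusted p = 0.0031), as was FAA2 (-0.30 ± 0.08, adjusted p = 0.011), against 41.9% of all genes called in either direction and 19.9% called lower. With the replicate number as a block FOX2 was also called lower (-0.35, adjusted p = 0.0376). Without TMM factors neither POT1 (-0.41, adjusted p = 0.0514) nor FAA2 (0.05, adjusted p = 0.618) was called. PXA1 (0.36) and ECI1 (0.39) were then called higher, against 60.7% of all genes called in either direction. The median of all genes moved by 0.344.

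**Figure D3:**
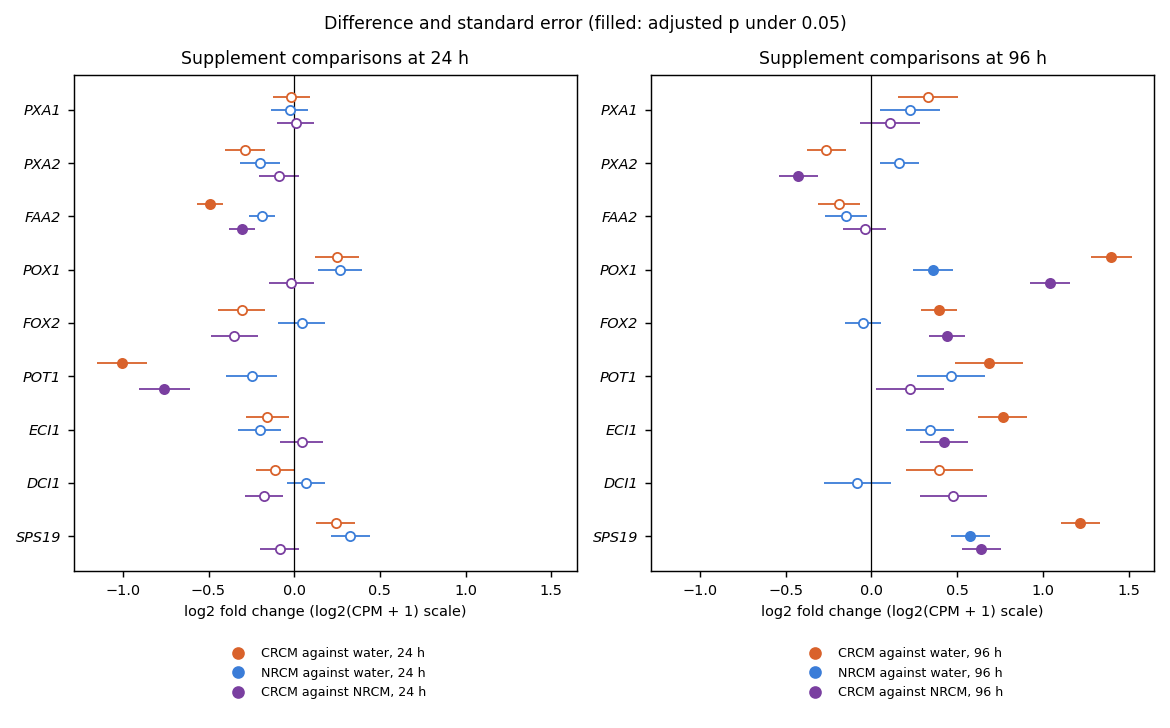
Log2 fold change with standard error (horizontal axes) for each gene in the 3 supplement comparisons at 24 h (left) and 96 h (right), with filled dots for adjusted p under 0.05. At 24 h the filled dots, POT1 and FAA2, lie left of 0, and at 96 h POX1 and SPS19 lie farthest right with CRCM, at 1.40 and 1.22.

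At 96 h 5 genes were higher with CRCM than with water, POT1 among them. POX1 was at 158, 141, and 123 CPM with CRCM and at 50.9, 52.0, and 51.1 CPM with water. SPS19 was at 231, 238, and 198 CPM with CRCM and at 97.4, 82.3, and 99.1 CPM with water. Neither gene had a CRCM library within the range of the water libraries. POX1 rose by 1.40 ± 0.12 (adjusted p = 1.4e-05), SPS19 by 1.22 ± 0.11 (adjusted p = 2.65e-05), and ECI1 by 0.76 ± 0.14 (adjusted p = 0.00167). POT1 (0.69 ± 0.20, adjusted p = 0.0176) and FOX2 (0.39 ± 0.10, adjusted p = 0.0123) passed by less. Leaving out water replicate 2 ended the calls of POT1 (adjusted p = 0.0555) and FOX2 (adjusted p = 0.051), and leaving out water replicate 1 ended that of POT1 (adjusted p = 0.0722). The 5 of 9 called higher (55.6%) compare with 19.5% of 6652 genes called higher and 41.5% called in either direction. Without TMM factors the same 5 genes were called higher and PXA2 was called lower (-0.37, adjusted p = 0.0219), while the median of all genes moved by -0.12 and the share of calls that were higher went from 47.1% to 33.1%.

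FAA2, PXA2, PXA1, and DCI1 (0.39, adjusted p = 0.129) were not called. FAA2 was at 114, 106, and 89.4 CPM with CRCM and at 116, 112, and 116 CPM with water (-0.19, adjusted p = 0.239). PXA2 was at 84.3, 65.7, and 67.5 CPM with CRCM and at 86.4, 80.8, and 86.5 CPM with water (-0.26, adjusted p = 0.0868). PXA1 spread widely with CRCM, at 161, 119, and 91.6 CPM, and was not called (0.33, adjusted p = 0.152). The low value belongs to CRCM replicate 3, the library with LEU2 and URA3 reads. Without that library PXA1 was 0.54 higher with CRCM than with water (adjusted p = 0.00294) and DCI1 was 0.61 higher (adjusted p = 0.0074), and POX1, SPS19, ECI1, POT1, and FOX2 kept their calls. What part the source of the LEU2 and URA3 reads has in these values was not tested.

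With NRCM 2 genes were called higher than with water at 96 h. SPS19 was at 150, 132, and 133 CPM against 97.4, 82.3, and 99.1 CPM with water (0.58 ± 0.11, adjusted p = 0.00666). POX1 was at 73.6, 58.8, and 65.9 CPM (0.36 ± 0.12, adjusted p = 0.0479) and its call was lost when any single library of the comparison was left out. The 2 of 9 called compare with 24.6% of all genes, or 12.5% called higher. Between the conditioned media POX1 (1.04 ± 0.12, adjusted p = 0.000146), SPS19 (0.64 ± 0.11, adjusted p = 0.00169), FOX2 (0.44 ± 0.10, adjusted p = 0.00792), and ECI1 (0.42 ± 0.14, adjusted p = 0.0358) were higher with CRCM. The call of ECI1 was lost without CRCM replicate 1 (0.28, adjusted p = 0.108) or CRCM replicate 2 (adjusted p = 0.0606). It was also lost without NRCM replicate 2 (adjusted p = 0.127) or 3 (0.1), and with only the 6 libraries compared (0.0703). PXA2 was lower with CRCM (-0.43 ± 0.11, adjusted p = 0.0143), so that 5 of 9 were called against 37% of all genes, 4 of them higher against 17.3% and 1 lower against 19.7%. The call of PXA2 was lost without CRCM replicate 2 (adjusted p = 0.0568) or NRCM replicate 3 (0.0632), and with all 27 libraries in one fit (0.06). Without CRCM replicate 3 the count was 8 (7 higher and 1 lower), with POT1 (0.44), PXA1 (0.32), and DCI1 (0.69) added. Without CRCM replicate 2 or NRCM replicate 3 the count was 3.

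Whether a supplement's effect at 96 h differed from its effect at 24 h was asked with an interaction term, fitted to all libraries. For CRCM against water POT1 changed most, by 1.71 ± 0.27 (adjusted p = 5.39e-05), followed by POX1 (1.16 ± 0.19, adjusted p = 7.94e-05), SPS19 (0.99 ± 0.20, adjusted p = 0.000814), ECI1 (0.93 ± 0.24, adjusted p = 0.00466), and FOX2 (0.71 ± 0.19, adjusted p = 0.00654). All 5 had a more positive CRCM effect at 96 h, against 15.5% of all genes (29.9% called in either direction). For CRCM against NRCM the 4 called were POX1 (1.07), POT1 (1.0), FOX2 (0.81), and SPS19 (0.74), against 14.7% of all genes (28.1% in either direction). For NRCM against water 0 were called by limma, edgeR, or DESeq2, against 1.38% of all genes called by limma. At an unadjusted p under 0.05 there were 2, with no share of all genes taken at that threshold. Both CRCM interactions share their CRCM libraries. Without CRCM 96 h replicate 3 the same 5 and the same 4 were called and DCI1 was called in addition (0.71 and 0.87). Without TMM factors 2 genes were called in each, against 55.6% of all genes for CRCM against water and 41.9% for CRCM against NRCM. For CRCM against water these were POX1 (0.62) and POT1 (1.17), while FOX2, ECI1, and SPS19 lost their calls. For CRCM against NRCM they were POX1 (0.69) and PXA2, which was called in the other direction (-0.70, adjusted p = 0.0276), while FOX2, POT1, and SPS19 lost their calls. The median of all genes moved by -0.55 and -0.363 in the 2 interactions.

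From 24 h to 96 h 7 of the 9 rose in CRCM cultures, all but FAA2 and DCI1, led by POT1 (2.06 ± 0.19, adjusted p = 8.89e-09) and POX1 (0.87 ± 0.13, adjusted p = 1.34e-05), against 22.5% of all genes called higher and 47.2% in either direction. This count was 4 without CRCM 24 h replicate 1 or CRCM 96 h replicate 1, and 8 without CRCM 96 h replicate 3, with DCI1 added (0.61, adjusted p = 0.0166). PXA1, ECI1, and SPS19 were the genes that lost their calls without replicate 1 of either time point. SPS19 also lost its call without CRCM 24 h replicate 2 (adjusted p = 0.0661) or CRCM 96 h replicate 2 (0.085). PXA1 also lost its call with only the 6 libraries compared (adjusted p = 0.0597). In water cultures PXA2 rose (0.61, adjusted p = 0.0019) and ECI1 (-0.45, adjusted p = 0.0261) and SPS19 (-0.58, adjusted p = 0.00142) fell, against 27.2% of all genes called higher and 26.5% lower (53.6% together). In NRCM cultures POT1 (1.06, adjusted p = 5.58e-05) and PXA2 (0.96, adjusted p = 1.21e-05) rose and SPS19 fell (-0.34, adjusted p = 0.0461), against 28.8% called higher and 28.3% lower (57.1% together). The call of ECI1 in water cultures was lost without 24 h replicate 2 (adjusted p = 0.081) or 3 (0.0754) or 96 h replicate 1 (0.0635) or 2 (0.0577). That of SPS19 in NRCM cultures was lost without 24 h replicate 2 (adjusted p = 0.17) or 3 (0.0961). It was also lost without 96 h replicate 2 (0.117) or 3 (0.116), and with a pseudocount of 0.1 CPM (0.051). Without TMM factors 7 genes were called higher in water cultures, 6 in NRCM cultures, and 8 in CRCM cultures, with 0 lower in each. Of all genes 77.7%, 69.1%, and 47.7% were then called, and 88.4%, 82.5%, and 61.9% of those calls were higher. ECI1 (0.20) in water cultures and SPS19 (0.09 and 0.18) in water and NRCM cultures were then no longer lower. The medians of all genes in this setting were 0.708 in water, 0.515 in NRCM, and 0.125 in CRCM cultures. PXA2 was called higher with all 3 supplements, and PXA1 with CRCM (0.51) and, without TMM factors, with water (0.82), CRCM (0.64), and NRCM (0.90).

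**Figure D4:**
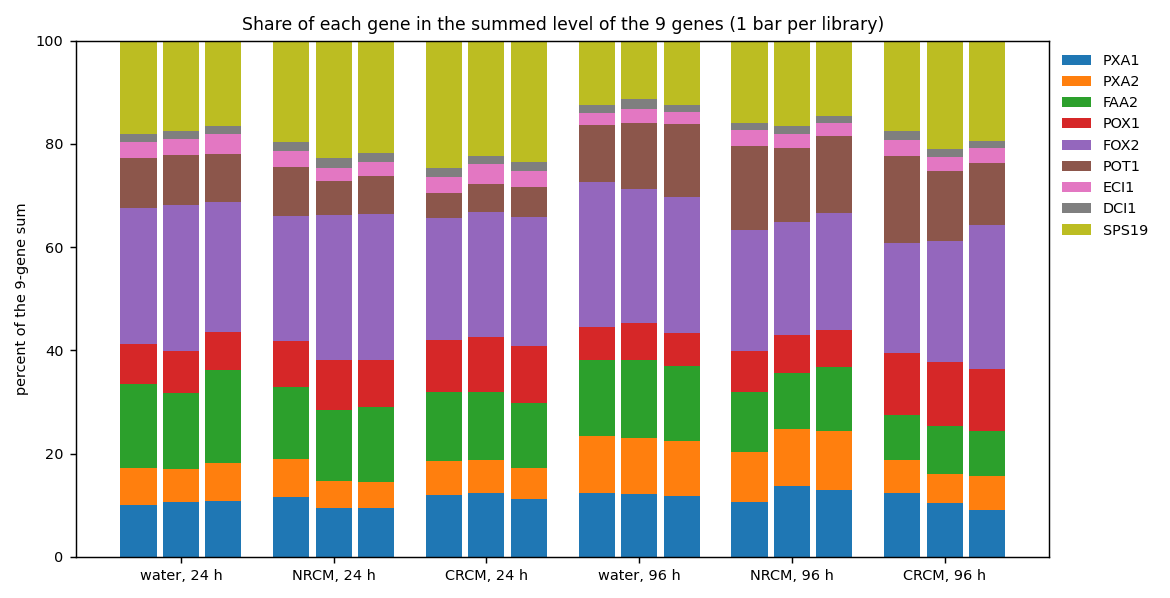
Share of each gene, in percent (vertical axis), in the summed CPM of the 9 genes, with 1 bar per library for the 3 supplements at 24 h and 96 h. POT1 takes 4.8 to 5.7% in the CRCM libraries at 24 h and 12 to 16.8% in those at 96 h, and FOX2 takes over 20% in every bar.

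The make-up of the pathway's RNA, which is free of library scaling, shifted with supplement and time. At 24 h and 96 h FOX2 had the largest mean share in each group, at 26.6 ± 1.59% of the 9-gene sum in water cultures at 24 h and 24.4 ± 3.35% in CRCM cultures at 96 h, or 22.5% there without replicate 3. In CRCM replicate 1 at 24 h SPS19 (24.5%) had more than FOX2 (23.7%). POX1 made up 6.64 ± 0.342% in water cultures at 96 h and 12.1 ± 0.159% (12.2% without replicate 3) in CRCM cultures at 96 h. FAA2 went the other way, with 14.8 ± 0.318% in water cultures and 8.89 ± 0.295% (8.95% without replicate 3) in CRCM cultures at 96 h. The ratio of SPS19 to FAA2 was 2.03, 2.26, and 2.21 in the CRCM libraries at 96 h, against 0.841, 0.736, and 0.857 with water and 1.38, 1.5, and 1.18 with NRCM. The 3 ranges of this ratio did not overlap. For POX1 over POT1 and PXA1 over PXA2 the CRCM range at 96 h lay above the others, and the water and NRCM ranges overlapped. The gene pairs for ratios were not planned. SPS19 was called higher with CRCM and FAA2 was not, so their ratio restates those values. An exact permutation test of 3 against 3 libraries cannot pass 0.05, so shares and ratios are given as values only.

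Per kilobase of coding sequence, which allows levels to be compared between genes, SPS19 was the most abundant of the 9 at 96 h with CRCM, at 253 CPM per kb, followed by POT1 (133) and FOX2 (103). DCI1 (21.1) and PXA2 (28.3) were the least abundant. Without CRCM replicate 3 SPS19 was at 267, POT1 at 150, FOX2 at 102, PXA2 at 29.3, and DCI1 at 24 CPM per kb. Over the 9 groups the highest mean was in CRCM cultures at 96 h for POX1, FOX2, POT1, PXA1, ECI1, and SPS19. It was in water cultures at 24 h for FAA2, in NRCM cultures at 96 h for PXA2, and in water cultures in log phase for DCI1. Without CRCM 96 h replicate 3 the highest mean of DCI1 was in CRCM cultures at 96 h, and the other 8 were as before. The highest group exceeded the lowest by 18.9-fold for POT1, 17.7-fold for POX1, and 16.4-fold for SPS19, but by 2.37-fold for ECI1 and 1.64-fold for DCI1. Without CRCM 96 h replicate 3 these were 21.4-fold, 18.8-fold, 17.4-fold, 2.52-fold, and 1.69-fold. Of the 8 steps between neighbouring groups in the order of all 27 libraries, 4 overlapped for POT1 and for SPS19, and all 8 overlapped for DCI1.

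Reads could be shared or misassigned for some of these genes. ECI1 and DCI1 were 59.5% identical over aligned coding bases with a longest identical run of 17 bases, and PXA1 and PXA2 were 62.5% identical with a longest run of 12 bases. The start of FAA2 overlaps the antisense gene YER014C-A, whose level was 19.1 to 30.8 CPM as group means, and the strand setting of the counting is not given in the sources used here. YER014C-A did not move with FAA2 at 24 h, at 24.5 CPM with CRCM and 23.7 CPM with water.

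Other peroxisomal and lipid genes were counted in the same way. At 24 h with CRCM against water 13 of 29 peroxisome biogenesis genes rose and 2 fell, with a median of 0.236 against 0.01 over all genes, of which 26.8% were called higher and 24.7% lower. PEX13 (1.05), a docking factor for matrix protein import, PEX21 (0.91), and the import receptor gene PEX5 (0.74) rose, and PEX11 (-0.72), which promotes peroxisome division, fell. Of 11 other peroxisomal enzymes and carriers 4 fell and 7 were not called. These were the ATP carrier ANT1 (-0.88), PCS60 (-0.77), the NADP-dependent isocitrate dehydrogenase IDP3 (-0.65), and the thioesterase TES1 (-0.51). Of 10 fatty acid synthesis and elongation genes 7 fell and 3 were not called, led by the fatty acid synthase subunit FAS1 (-1.86), the desaturase OLE1 (-1.30), FAS2 (-1.19), and TSC13 (-0.83). Without TMM factors the biogenesis genes were 25 higher and 1 lower, the other enzymes and carriers 4 higher and 2 lower, and the synthesis genes 4 lower. Of all genes 67.4% were called in this setting, 85.2% of them higher. Of the genes named, IDP3 (-0.23, adjusted p = 0.129) and TES1 (-0.08, adjusted p = 0.518) then lost their calls.

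At 96 h with CRCM against water 7 of 11 other peroxisomal enzymes and carriers rose and 2 fell, with a median of 0.415 against -0.015 over all genes, of which 19.5% were called higher and 21.9% lower. The peroxisomal catalase CTA1 (1.29), LPX1 (0.92), the carnitine acetyltransferase CAT2 (0.81), and IDP3 (0.81) rose most. CTA1 was at 295, 201, and 139 CPM with CRCM and at 77.1, 87.0, and 76.5 CPM with water. Of the biogenesis genes 9 rose and 5 fell, led by PEX22 (1.46), PEX21 (1.04), PEX2 (0.78), and PEX19 (0.75). CRCM replicate 3 was the highest library for PEX22, at 114 CPM against 56.6 and 55.5 CPM, and for IDP3, at 103 CPM against 61.1 and 56.0 CPM. Of the synthesis and elongation genes 3 fell and 1 rose, with IFA38 (-1.04), ELO1 (-0.84), and FAS1 (-0.52) lower and OLE1 (0.89) higher. Without CRCM replicate 3, an alternative added after seeing the data, the counts were 7 higher and 2 lower, 11 and 6, and 1 and 3. PEX22 (1.14), IDP3 (0.55), LPX1 (0.74), and CTA1 (1.57) then differed in size, and they and the other genes named here kept their calls. Without TMM factors the genes named here kept their calls too.

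Of the 5 regulators 1 was called for CRCM against water at 96 h, and it was lower, against 21.9% of all genes called lower. OAF1 was at 118, 102, and 90.6 CPM with CRCM and at 131, 133, and 131 CPM with water (-0.39 ± 0.11, adjusted p = 0.0147), and the change was -0.28 (adjusted p = 0.0159) without CRCM replicate 3. ADR1 (-0.37, adjusted p = 0.0857), SNF1 (-0.22, adjusted p = 0.162), PIP2 (-0.22, adjusted p = 0.236), and OAF3 (-0.16, adjusted p = 0.273) were not called. Without TMM factors ADR1 (-0.48, adjusted p = 0.0218) and SNF1 (-0.33, adjusted p = 0.0455) were called lower as well. Of all genes 42.2% were then called in either direction. For NRCM against water at 96 h 1 of the 5 was called too, ADR1 (-0.52, adjusted p = 0.0408), against 12.1% of all genes called lower. At 24 h none of the 5 was called for CRCM against water, with OAF1 (0.18, adjusted p = 0.0625) and PIP2 (0.21, adjusted p = 0.0547) nearest, at unadjusted p of 0.0337 and 0.0287. Of all genes 51.5% were called in this comparison. Without TMM factors OAF1 (0.60), PIP2 (0.63), OAF3 (0.60), and SNF1 (0.40) were called higher. In that setting 67.4% of all genes were called, 85.2% of them higher.

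As a description, the profile of the mean log2 level of the 9 genes over the 27 libraries was most like those of DBP1 (Pearson r = 0.994), GDH3 (0.992), DPC7 (0.99), HSP33 (0.99), and SIP18 (0.99), among 6013 genes with a mean of at least 10 CPM. Libraries of a group share their culture conditions, and this likeness follows mainly the step from log phase to 24 h. Over the 18 libraries of 24 h and 96 h, with the mean of each time point removed, the nearest were DBP1 (0.942), NDE2 (0.913), USV1 (0.911), ENA2 (0.909), and YGR201C (0.907). In the latter libraries ECI1 followed the mean of the other 8 genes most closely (r = 0.863), whereas FAA2 (0.153) and PXA2 (-0.168) did so least.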

How the data were processed

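The authors selected poly(A) RNA, mapped reads to sacCer3 with bowtie2 and named DESeq2; the submitters' notes add bedtools and edgeR. Read assignment is not given in the sources used here. The deposited values are a signal, reads per gene divided by the library total, although titled as counts. Whole reads were recovered from them: 100% of 71808 testable values were whole within 0.1 read (39.9% of values above 0 were testable).

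Genes were kept where 3 or more libraries reached 1 CPM, and tested with limma 3.58.1 (R 4.3.3, edgeR 4.0.16 TMM factors) on log2(CPM + 1), over the 9 libraries of a time point for supplements and all 27 for time and interactions. P values were adjusted by Benjamini-Hochberg over all genes, with a threshold of 0.05.  Alternatives were no TMM factors, edgeR and DESeq2 1.42.0 on recovered reads, other pseudocounts (0.1 and 5 CPM), no filter, other library sets, a replicate block, and leaving out libraries. Tests were run on simulated data. Levels use TMM factors over 27 libraries. The study calls the replicates biological.

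The members and lists were chosen with earlier results of these data known. Besides all 9 members and 5 regulators, up to 4 called genes a list were named by size of change. Same-numbered CRCM and NRCM libraries deviated together at log phase (correlations 0.481 to 0.751) and 24 h (0.227 to 0.34), with every pair over 0.1, and for no other 2 groups of a time point were all 3 pairs over 0.1. Protein sequences were not used here.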

Additional observations from a re-analysis of the deposited data

Results flagged for a closer look

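The effect of CRCM against water differed between 24 h and 96 h by the interaction test for POX1 (1.16), FOX2 (0.71), POT1 (1.71), ECI1 (0.93), and SPS19 (0.99), all as log2 differences. The effect of CRCM against NRCM differed likewise for POX1 (1.07), FOX2 (0.81), POT1 (1.0), and SPS19 (0.74). POT1 is the gene whose call against water turned, from lower at 24 h to higher at 96 h. Without CRCM 96 h replicate 3, the library with LEU2 and URA3 reads, all 9 differences kept their calls and DCI1 was called too, at 0.71 against water and 0.87 against NRCM. Without TMM factors 6 of the 9 lost their calls, FOX2 (adjusted p = 0.519), ECI1 (0.167), and SPS19 (0.0639) against water and FOX2 (0.112), POT1 (0.0674), and SPS19 (0.159) against NRCM.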

How the results depend on the processing

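Of the counts of beta-oxidation genes called, 251 of 276 alternatives stayed within 1.5 times the main count. This compares totals only, whatever the genes or their direction, and includes the log-phase comparisons, where every count was 0. For CRCM against NRCM at 24 h without TMM factors the total stayed at 2 with other genes. POT1 and FAA2 were no longer called lower, and PXA1 and ECI1 were called higher. Without TMM factors the count became 4 for CRCM against water at 24 h (67.4% of all genes called). It became 1 for NRCM against water at 96 h (24%). For 96 h against 24 h it became 7 in water cultures (77.7%) and 6 in NRCM cultures (69.1%). It became 2 in the interactions of CRCM against water (55.6%) and of CRCM against NRCM (41.9%). The same setting changed the sign of 11 differences called with or without the factors and of 23 called in neither setting. Those 11 were PXA1 (0.40) for CRCM against water at 24 h and FAA2 (0.051) for CRCM against NRCM at 24 h, and in water cultures from 24 h to 96 h POX1 (0.38), FOX2 (0.64), FAA2 (0.48), ECI1 (0.20), SPS19 (0.090), and DCI1 (0.53), and in NRCM cultures FOX2 (0.38), FAA2 (0.36), and SPS19 (0.18). By construction it leaves in the shifts of the median gene given with each result. For NRCM against water at 96 h the count was 1 with a pseudocount of 5 CPM (24.2% of all genes called). It was 1 with the replicate block (19.5%) and with all 27 libraries in one fit (17.8%). It was 4 with only the 6 libraries compared (41.2%). All 27 libraries in one fit gave 1 for CRCM against NRCM at 24 h (34.8% of all genes called). Only the 6 libraries compared gave 6 for 96 h against 24 h in water cultures (68.6%). Leaving out 1 library at a time gave 0 to 2 calls for NRCM against water at 24 h, the 2 against 37.4% of all genes. For CRCM against water at 96 h it gave 3 (31%) to 7 (47.1% without CRCM replicate 3). For NRCM against water at 96 h it gave 1 (10.5% to 16%). For CRCM against NRCM at 96 h it gave 3 (27.3% and 28.7%) to 8 (42.5%). For 96 h against 24 h in CRCM cultures it gave 4 (41.5% and 42.2%) to 8 (42.5% without CRCM 96 h replicate 3). The replicate block added calls of FOX2 for CRCM against water (adjusted p = 0.0499) and against NRCM (0.0376) at 24 h. It added DCI1 in both CRCM interactions (0.0487 and 0.0139) and, for 96 h against 24 h, DCI1 with CRCM (0.0195), PXA1 with NRCM (0.0263), and POX1 with water (0.0369). It ended the call of POX1 for NRCM against water at 96 h (0.060), changed no other call, and moved no other count by over 1.5 times. The cause was not tested.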
